A study of Mus musculus with 4 samples.

Results

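The Hox cluster genes are the homeobox genes that lie side by side in the HoxA, HoxB, HoxC and HoxD clusters. They were chosen by name alone, as Hox followed by a cluster letter and a paralog number of 1 to 13, which gives 39 names in mouse. The deposited table held 36 of them among its 22369 genes, with 11 in HoxA, 9 in HoxB, 8 in HoxC and 8 in HoxD. Hoxb13, Hoxc12 and Hoxd1 were not analysed here. In the GRCm38 (mm10) assembly HoxA lies on chromosome 6 (minus strand) and HoxB on chromosome 11 (96271457 to 96368256, plus strand). The measured HoxC genes lie on chromosome 15 (102921103 to 103036852) and the HoxD genes on chromosome 2 (74668310 to 74748442), both on the plus strand.

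RNA was sequenced from OG2MEF cultures, mouse embryonic fibroblasts with a green fluorescent reporter driven by Oct4, on day 9 of reprogramming. There were 2 libraries labelled SOX17-V118M, a missense form of the endodermal transcription factor SOX17, and 2 labelled SOX17 WT. One protocol covers both groups: retroviral Sox2 and Klf4 with OCT4, SOX17, SOX17-V118M or GFP, then a medium for mouse embryonic stem cells to which LIF and vitamin C were added. The labels do not state which of these combinations each library received. They also do not call the replicates independent cultures, so the p-values describe only the scatter between these libraries, which may be technical. A value per gene cannot show which form of SOX17 a library carried. The question behind the comparison is how the mutation changes gene expression in cells under reprogramming.

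Hox genes encode homeodomain transcription factors that give cells their position along the body axis. The order of the genes in a cluster follows the order of their expression domains: low paralog numbers act toward the head and high numbers toward the tail and the tips of the limbs. Genes with the same number in different clusters are paralogs and share much of their function. Fibroblasts keep a Hox pattern that reflects the body site they came from, and mouse embryonic stem cells express few Hox genes, with the clusters under Polycomb control.

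The clusters also contain microRNA genes, whose mature products are shown here because Hox transcripts are known targets of them. The sequences are from RefSeq (GRCm38.p6), with the seed, bases 2 to 8, in capitals; both miR-196 products share one seed and both miR-10 products another.
mmu-miR-196a-5p: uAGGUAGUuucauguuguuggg
mmu-miR-196b-5p: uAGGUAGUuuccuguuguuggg
mmu-miR-10a-5p: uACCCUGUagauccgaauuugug
mmu-miR-10b-5p: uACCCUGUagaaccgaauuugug
The table has no row for these microRNAs. Mir196b lies between Hoxa9 and Hoxa10 (listed transcripts), Mir196a-2 between Hoxc10 and Hoxc9, and Mir196a-1 beyond Hoxb9. Mir10a lies between Hoxb5 and Hoxb4, and Mir10b inside the annotated spans of Hoxd3 and Hoxd4. In the Hoxb8 transcript (chromosome 11) bases 2208 to 2229 matched the complement of miR-196a over all 22 bases but 1, and the 1 difference is a G-to-U wobble pair. No other Hox transcript had a match with 4 or fewer differences. The site is shown with the bases that face the seed in capitals.
Hoxb8 site: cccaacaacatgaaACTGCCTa
An exact seed match for miR-196, ACTACCT, was found in 11 of 36 listed Hox transcripts (30.6%), against 13.7% of the 22304 transcripts of the table with a sequence. It occurred 4 times in Hoxa7 and 2 times in Hoxc8. The miR-10 seed match, ACAGGGT, was in 6 of 36 (16.7%), against 17.1% of all. Median transcript length was 2128.5 bases for Hox genes and 2255 for all genes, and a match is a description of the letters, not a site in use.

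The values of the table are normalized whole numbers of no stated unit, with nearly the same distribution in each library, so depth is unknown and a shift of most genes could not be seen. Totals were between 12855482 and 12859613 per library. One library, V118M replicate 2, differed from the rest over 12661 of the more highly expressed genes (mean of 5 or more on the log2(value + 1) scale), with Pearson correlations of 0.954 to 0.964 with the others, against 0.986 to 0.990 among the other 3. Over the 36 Hox genes, low ones included, its correlations were 0.959 to 0.971 and overlapped those among the other 3. There V118M replicate 1 was at 0.962 with WT replicate 1 and 0.981 with WT replicate 2, and the WT replicates were at 0.982. By cluster the median log2 deviation of V118M replicate 2 from the other 3 was 0.25 in HoxA, 0.54 in HoxB, -0.23 in HoxC and -0.04 in HoxD. Over the 12635 more highly expressed genes with a known transcript length, the deviation of V118M replicate 2 was related to transcript length. The rank correlation (Spearman) was -0.458 across genes, which are not replicates. All 15 fibroblast markers were detected and summed to 188697 and 150803 in V118M and to 188075 and 185941 in WT. Col3a1 was a large part of each sum, with 61186 and 29496 in V118M, against 61186 and 61186 in WT. The V118M and WT values of a fibroblast marker did not overlap in 4 of 15, all higher in V118M. Keratinocyte markers summed to 24930 and 26933 in V118M and 17632 and 16240 in WT. The V118M and WT values did not overlap, called groups apart here, in 8 of 10, against 28.0% of all genes tested. Of the 8 keratinocyte markers apart, 7 were higher in V118M and 1 was lower. Leukocyte markers summed to 653 and 688 in V118M and 971 and 864 in WT (apart in 1 of 12). Epithelial markers summed to 22593 and 24151 in V118M and 22834 and 24312 in WT (apart in 4 of 12, all lower in V118M). Endothelial markers summed to 1229 and 1095 in V118M and 1279 and 1344 in WT, with Emcn listed at 0. All 7 that were tested were apart, 5 lower and 2 higher in V118M. Tek made up most of each endothelial sum (1054 and 933 in V118M, against 1103 and 1172 in WT). Neural markers summed to 5006 and 4011 in V118M and 4712 and 4640 in WT (apart in 2 of 8 tested; Neurog2 listed at 0). The gene with the smallest p in each list was Postn, Krt5, Ptprc, Cldn6, Cdh5 or Pax6, and 0 markers passed an adjusted p of 0.05 (limma). The part of these cell types in the Hox values was not tested, and in such cultures fewer cells of a type and less RNA per cell cannot be told apart.

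Transcripts of all 4 clusters were present in V118M and in WT. Of 36 genes, 32 had values of 10 or more in every library, and 15 had a mean above 76, the median of all genes in each library. Hoxb1 was the only member listed at 0 in all 4 libraries. The Hox values summed to 3440 and 4043 in V118M and to 3612 and 3868 in WT, which is 0.0268% and 0.0314% of the total in V118M and 0.0281% and 0.0301% in WT. These sums overlapped between the groups. Paralogs 9 to 13 made up 1807 and 1988 of them in V118M and 1861 and 1929 in WT. Across the 4 libraries the highest value of a gene was less than 2 times the lowest in 28 of the 34 genes with no library at 0, with a median ratio of 1.62.

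**Figure D1:**
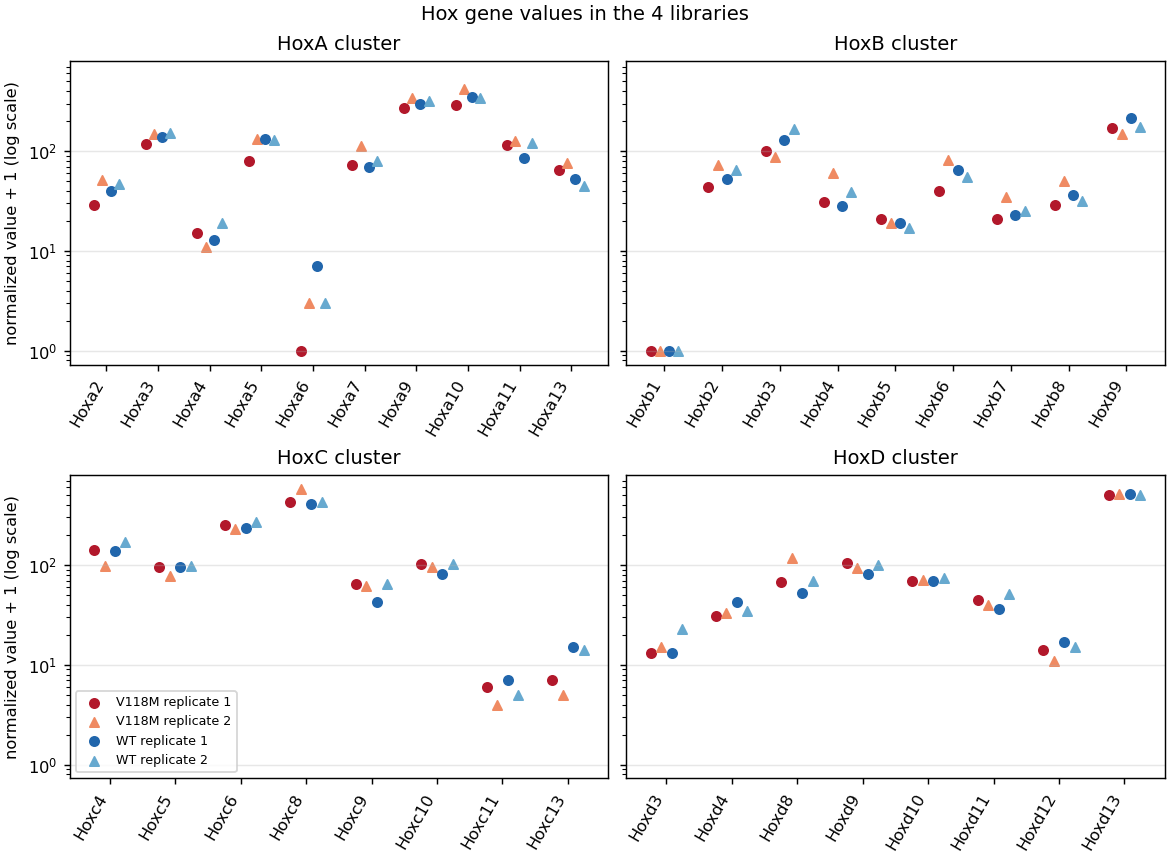
Normalized value + 1 on a log axis for each Hox gene named here (x axis, by cluster and paralog number) in each of the 4 libraries: V118M replicates in red and orange, WT replicates in dark and light blue. Hoxd13 and Hoxc8 are near 500 in both groups and Hoxb1 is listed at 0 in all libraries.

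The group 12 and 13 genes at the 5' end of the clusters are known for patterning digits, limbs and the genital tubercle. Hoxd13, a digit gene, had the highest mean of all members, with values of 498 and 516 in V118M, against 520 and 508 in WT. The 4 libraries were within 1.04-fold of each other, the narrowest range of any member. Hoxa13, which acts with Hoxd13 in the hand and foot plate, had 64 and 75 in V118M, against 52 and 44 in WT. Both V118M libraries were above both WT libraries, with a log2 fold change of 0.53 ± 0.26 (SE; limma adjusted p = 0.951). Hoxc13, required for hair formation, had 6 and 4 in V118M, against 14 and 13 in WT, so the groups were apart at a low level (log2 fold change -1.29 ± 0.48, limma adjusted p = 0.951). Its mean was 5 ± 1.41 in V118M and 13.5 ± 0.707 in WT (SD, n = 2 each). Hoxd12, a digit gene as well, had 13 and 10 in V118M, against 16 and 14 in WT.

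Paralogs 9 to 11 pattern the lumbar and sacral region and the long bones of the limbs. Hoxa10, known for its role in the uterus and the lumbar spine, had 290 and 414 in V118M, against 351 and 342 in WT, so that the V118M values lay on either side of the WT values. Hoxa9, a regulator of blood progenitors, had 267 and 338 in V118M, against 297 and 320 in WT. Hoxb9, a thoracic gene, had 169 and 148 in V118M, against 214 and 175 in WT, with both V118M libraries lower (log2 fold change -0.29 ± 0.20, limma adjusted p = 0.951). Hoxa11, a gene of the forearm and kidney, had 114 and 124 in V118M, against 84 and 120 in WT. Its partner Hoxd11 had 44 and 39 in V118M, against 35 and 50 in WT. The groups overlapped for both. Hoxc9, which sets the boundary between limb and thoracic motor neurons, had 64 and 60 in V118M, against 42 and 63 in WT. Hoxc10, a lumbar gene, had 102 and 94 in V118M, against 81 and 102 in WT. Hoxd9 had 103 and 93 in V118M, against 80 and 100 in WT. These 3 genes overlapped between the groups, with the lowest value in WT replicate 1. Hoxd10, expressed in lumbar motor neurons, had 68 and 70 in V118M, against 69 and 74 in WT. Hoxc11 had low values, 5 and 3 in V118M, against 6 and 4 in WT.

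The central paralogs 5 to 8 pattern the neck and chest. Hoxc8, a thoracic gene, had 428 and 580 in V118M, against 411 and 429 in WT. V118M replicate 2 was high and the other 3 libraries lay within a narrow range. Hoxc6 had 252 and 228 in V118M, against 236 and 266 in WT. Hoxd8 had 66 and 117 in V118M, against 51 and 68 in WT, and its log2 fold change was 0.57 ± 0.36 (SE; adjusted p = 0.951 by limma). Leaving out V118M replicate 2 gave 0.16, and leaving out V118M replicate 1 gave 0.98. Here too V118M replicate 2 was the highest library and V118M replicate 1 lay within the WT range. Hoxa5, required for lung development, had 78 and 131 in V118M, against 131 and 129 in WT. In this gene V118M replicate 1 alone was low. Hoxa7 had 72 and 112 in V118M, against 68 and 79 in WT. Hoxb6 had 39 and 81 in V118M, against 64 and 54 in WT, with the lowest and the highest value both in V118M. Hoxb8, a gene with a known role in myeloid cells, had 28 and 49 in V118M, against 35 and 31 in WT, the same arrangement. Hoxb7 had 20 and 34 in V118M, against 22 and 24 in WT, again the same. Hoxc5 had 94 and 76 in V118M, against 94 and 96 in WT. Hoxb5, a gene of the shoulder girdle, was low at 20 and 18 in V118M, against 18 and 16 in WT. Hoxa6 was listed at 0 and 2 in V118M, against 6 and 2 in WT.

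The 3' paralogs 1 to 4 pattern the hindbrain, the pharyngeal arches and the neck. Hoxb3, which acts in the hindbrain and thyroid, had 100 and 86 in V118M, against 128 and 164 in WT. Both V118M libraries were lower, with a log2 fold change of -0.64 ± 0.23, and this was the smallest p among the members (limma unadjusted p = 0.0376, adjusted p = 0.951). Its mean was 93 ± 9.90 in V118M and 146 ± 25.5 in WT (SD, n = 2 each). Hoxa3, required for the thymus and parathyroid, had 116 and 148 in V118M, against 138 and 151 in WT. Hoxc4 had 142 and 97 in V118M, against 137 and 168 in WT, with V118M replicate 2 the lowest. Hoxd4, a gene of the neck vertebrae, had 30 and 32 in V118M, against 42 and 34 in WT, which did not overlap. Hoxb4, known for the expansion of blood stem cells, had 30 and 60 in V118M, against 27 and 38 in WT. Here V118M replicate 2 was the highest library. Hoxa2, the selector of skeletal identity in the pharyngeal arch that forms the stapes, had 28 and 50 in V118M, against 39 and 46 in WT. Hoxb2, a gene of the hindbrain, had 43 and 72 in V118M, against 51 and 64 in WT. Both genes had their lowest and highest values in V118M. Hoxd3 had 12 and 14 in V118M, against 12 and 22 in WT, and Hoxa4 had 14 and 10 in V118M, against 12 and 18 in WT.

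Levels of different genes were compared per kb of the transcript that the table lists for each gene. Hoxc6 had the highest level per kb (274), then Hoxc8 (247), Hoxd13 (206), Hoxc5 (146), Hoxa10 (136) and Hoxd8 (136), as means of the 4 libraries. For Hoxc6 the library values were between 254 and 297 per kb and for Hoxc8 between 220 and 310, so these neighbours in the order overlapped, while Hoxd13 was between 201 and 209 and lay below both. The listed transcript is shorter than 1 kb for 5 genes (Hoxa6, Hoxc5, Hoxc6, Hoxc9 and Hoxd8), and the labels do not say how reads were summed over the transcripts of a gene. With the length of all annotated exons of a gene, a choice made after the values were seen, the order was Hoxd13 (206), Hoxc8 (163), Hoxa10 (107), Hoxc6 (102), Hoxb9 (68.6) and Hoxa5 (62.5). Hoxc5 and Hoxd8 then had levels per kb of 29.1 and 27.5. By cluster the median level per kb of the listed transcript was 40.7 in HoxA, 18.3 in HoxB, 77.2 in HoxC and 32.2 in HoxD. With all annotated exons it was 23.8 in HoxA, 16.2 in HoxB, 39.4 in HoxC and 19.6 in HoxD. The HoxB genes reached 68.6 at most, in Hoxb9, their 5'-most measured member.

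**Figure D2:**
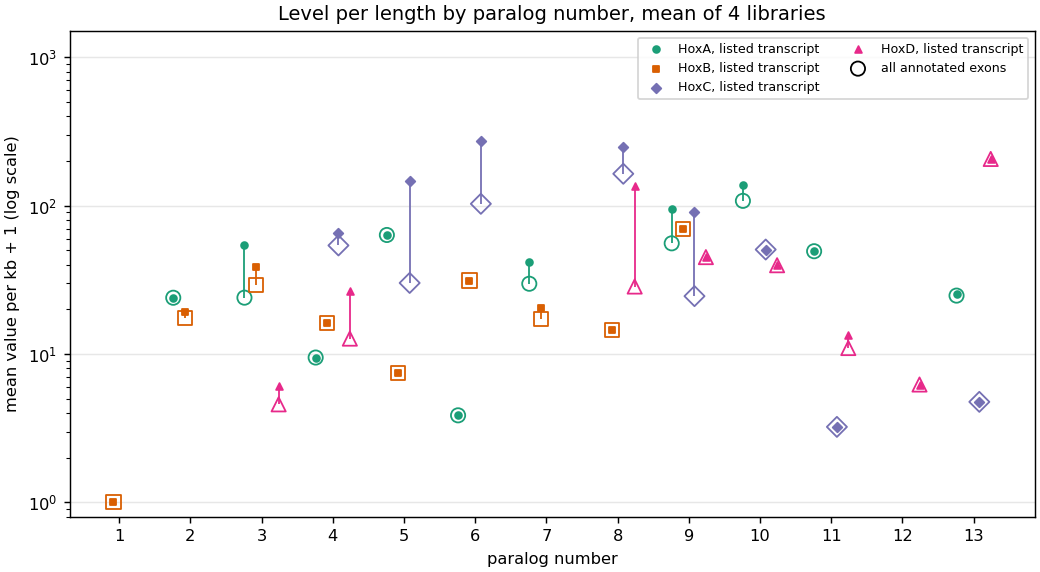
Mean value per kb + 1 of the 4 libraries on a log axis, by paralog number (x axis) and cluster (colour and shape). Filled points use the listed transcript and open points all annotated exons of the gene, joined by a line; Hoxd13 is at 206 by both, while Hoxc6 is at 274 or 102.

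The promoters of Hoxd13, the member with the highest mean, and of Hoxb1, the member listed at 0, are shown as the ends of this range. Each runs from 250 bases before to 50 after the RefSeq start (GRCm38.p6), on the plus strand, with CpG pairs in capitals. The Hoxd13 window (chr2:74667975-74668274) holds 37 CpG and the Hoxb1 window (chr11:96365508-96365807) holds 10.
Hoxd13: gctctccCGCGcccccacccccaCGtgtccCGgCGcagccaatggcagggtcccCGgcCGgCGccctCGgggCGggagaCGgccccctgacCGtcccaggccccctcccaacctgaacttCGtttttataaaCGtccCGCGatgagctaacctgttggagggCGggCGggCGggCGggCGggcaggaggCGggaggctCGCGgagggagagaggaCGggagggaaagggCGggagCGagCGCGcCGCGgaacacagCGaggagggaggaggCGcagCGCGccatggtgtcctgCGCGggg
Hoxb1: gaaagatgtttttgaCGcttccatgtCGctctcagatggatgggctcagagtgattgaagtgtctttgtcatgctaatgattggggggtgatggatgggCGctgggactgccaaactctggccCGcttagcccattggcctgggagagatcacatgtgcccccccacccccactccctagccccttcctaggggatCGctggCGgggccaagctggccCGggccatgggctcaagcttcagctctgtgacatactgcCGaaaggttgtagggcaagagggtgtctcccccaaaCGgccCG
RefSeq windows were matched for 21 of the 36 genes, 23 windows in all, with a median of 14 CpG (range 4 to 45), against a median of 7 over 32851 windows. Hoxa13 had 45 and Hoxa9 had 4. The series names CATTGTATGCAAAT as the compressed SOX/OCT element that the mutant binds more cooperatively. On both strands it was in 0 of the 23 Hox windows and in 0 of all windows. Its SOX core ATTGT was in 7 Hox windows (30.4%), those of Hoxa2, Hoxa3, Hoxa5, Hoxa7, Hoxc4, Hoxd8 and Hoxd10, against 31.0% of all windows. CATTGT was in 0 Hox windows, against 12.6% of all, and the octamer part ATGCAAAT was in 0, against 1.74% of all; these motifs overlap each other, and the absence of the letters says nothing of binding elsewhere.

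No Hox gene differed between V118M and WT past the threshold. Of the 35 members that were tested (1 or more in 2 or more of the libraries), 0 passed an adjusted p of 0.05 (limma on log2(value + 1), adjusted over 19547 genes), beside a background of 0.0% of all genes tested. At an unadjusted p under 0.05 there were 2 members, Hoxb3 and Hoxc13, both lower in V118M, against a background of 4.01% in either direction and 1.7% lower. Without V118M replicate 1 there were 4 members (11.4%), against 26.8% of all genes tested, and without V118M replicate 2 there were 3 (8.57%), against 12% of all. When either WT replicate was left out there were 0, against 1.16% and 1.42% of all genes. With array quality weights there were 0 members, against 3.01% of all genes. There was 1 member with the replicate block (2.86%, against 6.16% of all) and 1 with no filter (2.78%, against 6.44%). With a filter of 10 or more in 2 libraries there was also 1 (3.03%, against 3.63%). The groups did not overlap in 6 of 35 members (17.1%), against 28.0% of all genes tested, with 1 higher (Hoxa13; background 13.2%) and 5 lower in V118M (Hoxb3, Hoxb9, Hoxc13, Hoxd4 and Hoxd12; background 14.8%). The log2 fold change was positive in 14 members and negative in 21, between -1.40 (Hoxa6) and 0.57 (Hoxd8). Both ends moved with the settings. Hoxa6, with values of 6 or less, was at -2.97 with a pseudocount of 0.1, at -0.57 with a pseudocount of 5 and between -2.20 and -0.61 when 1 library was left out. The median log2 fold change over the 35 tested members was -0.04, against 0.0 over all genes tested. The median turned positive when V118M replicate 1 (0.05) or WT replicate 2 (0.02) was left out. A p that misses the threshold does not show that the genes were alike: the standard errors of the log2 fold change ran from 0.14 for Hoxd13 to 0.83 for Hoxa6.

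**Figure D3:**
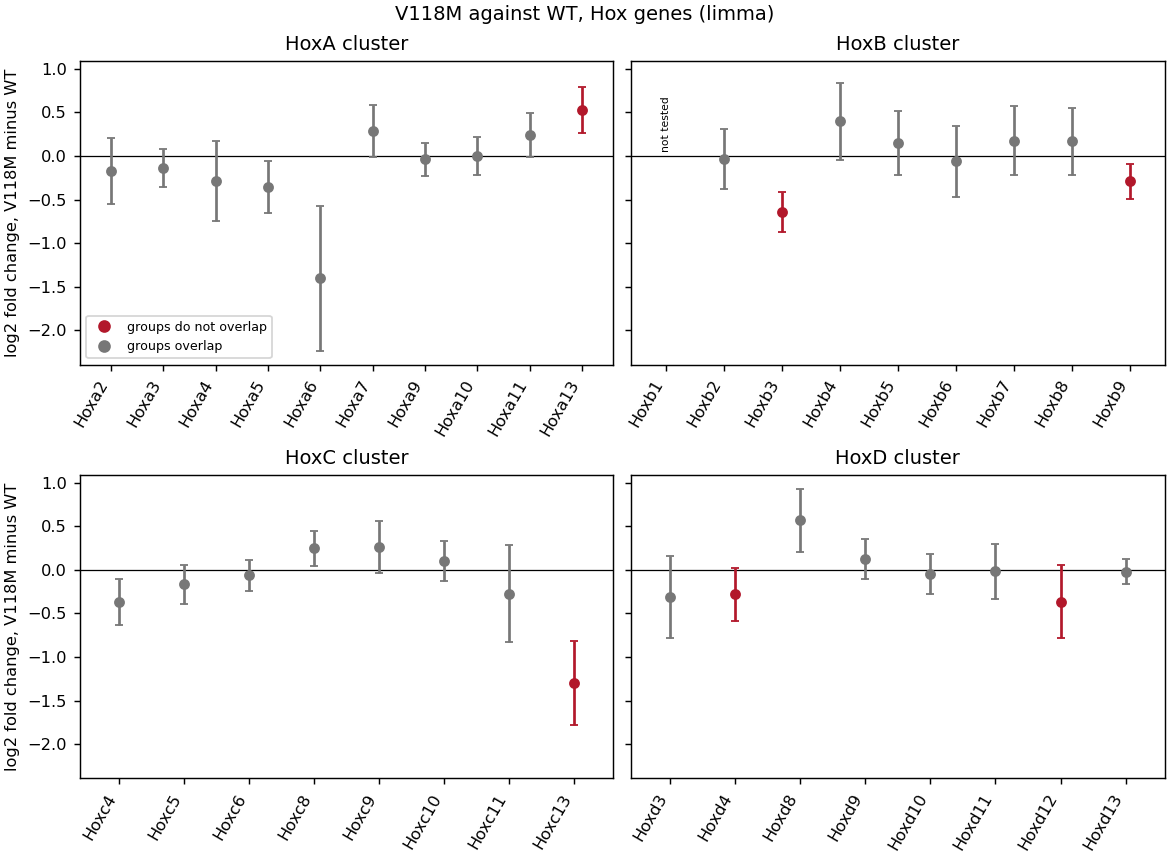
Log2 fold change, V118M minus WT, on the log2(value + 1) scale with its standard error (limma), for each Hox gene named here by cluster. Red points are the 6 genes whose V118M and WT values do not overlap; Hoxb1, listed at 0, was not tested.

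By cluster the median log2 fold change was -0.04 in HoxA, 0.06 in HoxB, -0.12 in HoxC and -0.03 in HoxD. The signs of these medians rested on single libraries. Without V118M replicate 1 the median was 0.23 in HoxA and 0.39 in HoxB, and without V118M replicate 2 it was -0.26 in HoxA, -0.21 in HoxB and 0.01 in HoxC. Without WT replicate 2 it was 0.05 in HoxD. By position it was -0.23 for paralogs 1 to 4, with 8 of 10 negative, 0.15 for paralogs 5 to 8, with 6 of 11 positive, and -0.02 for paralogs 9 to 13, with 8 of 14 negative. The signs for paralogs 5 to 8 and 9 to 13 rested on single libraries too. The median for paralogs 1 to 4 stayed negative with each library left out, but its size moved. For paralogs 5 to 8 the median was -0.03, with 4 of 11 positive, without V118M replicate 2, and 0.46 without V118M replicate 1. For paralogs 1 to 4 it was -0.08, with 5 of 10 negative, without V118M replicate 1, and -0.36 without V118M replicate 2. It was -0.25 without WT replicate 1 and -0.04 without WT replicate 2. For paralogs 9 to 13 it was 0.03 without V118M replicate 1 and 0.01 without WT replicate 2. Members of 1 paralog group could differ in sign. In group 13, the log2 fold change was 0.53 for Hoxa13, -1.29 for Hoxc13 and -0.02 for Hoxd13. In group 3 all 3 measured members had negative values, with -0.64 for Hoxb3, -0.31 for Hoxd3 and -0.14 for Hoxa3. All 3 members of group 8 had positive values, with 0.57 for Hoxd8, 0.25 for Hoxc8 and 0.17 for Hoxb8, and in each of them the highest library was V118M replicate 2.

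The difference between the V118M replicates had a pattern by cluster. In HoxA 10 of 11 genes were higher in V118M replicate 2 than in replicate 1, with a median log2 difference of 0.51, while in HoxC 7 of 8 were lower, with a median of -0.22. HoxB had a median of 0.73 with 5 of 8 higher, and HoxD had 0.05 with 5 of 8 higher. On the log2(value + 1) scale Hoxa6 (0 and 2) and Hoxb6 (39 and 81) had at least 2-fold more in V118M replicate 2. Hoxb4, at 30 and 60, was just under this limit on that scale, with a log2 difference of 0.98. No member had at least 2-fold less. Of all genes tested 50.8% were higher in V118M replicate 2, and the median absolute difference was 0.44, against 0.35 for Hox genes. Between the WT replicates the median absolute difference of the Hox genes was 0.24, against 0.17 over all genes. The WT replicates differed by a median of 0.13 in HoxA, -0.02 in HoxB, 0.12 in HoxC and 0.21 in HoxD. Paralogs 5 to 8 had a median V118M replicate difference of 0.74, and paralogs 9 to 13 had -0.10. These differences are between 2 single libraries and have no test.

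**Figure D4:**
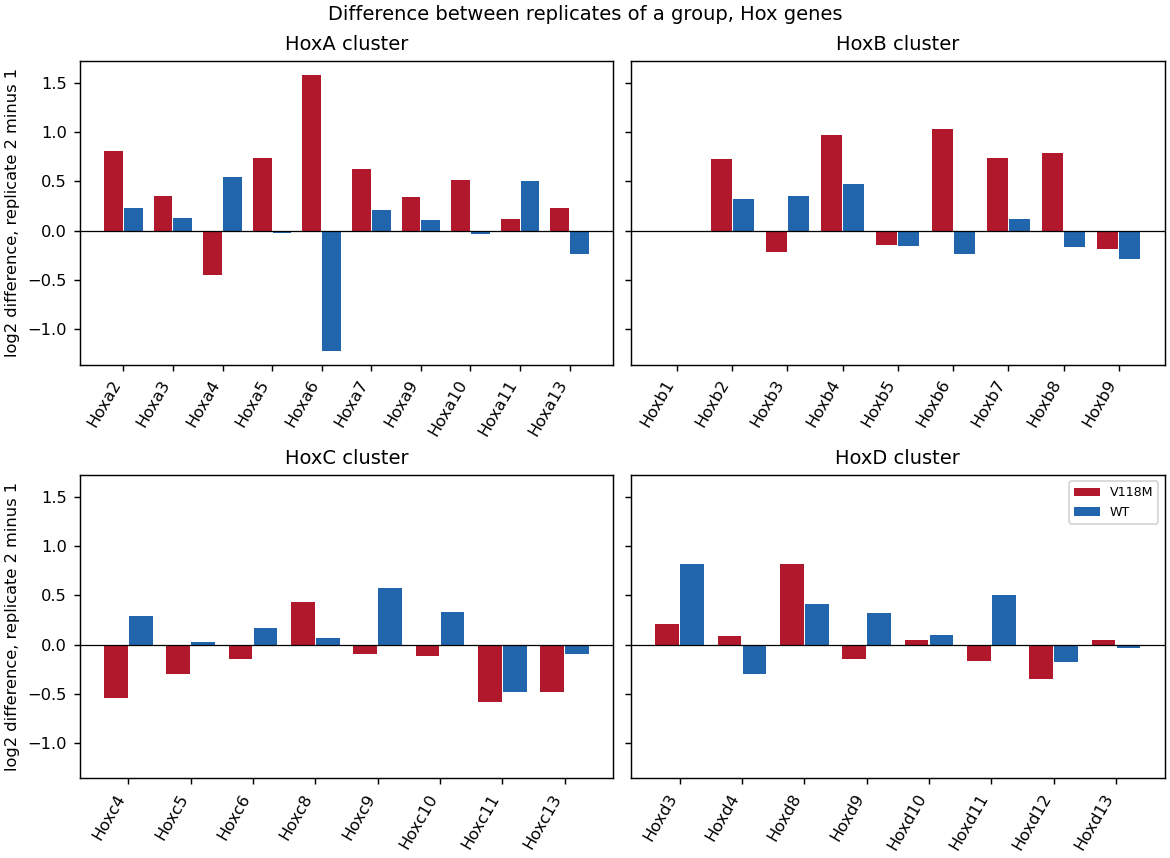
Log2 difference between the replicates of a group, replicate 2 minus replicate 1, for each Hox gene named here by cluster, with V118M in red and WT in blue. The V118M bars are above 0 in most HoxA genes and below 0 in 7 of 8 HoxC genes.

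Overlapping annotation limits some of these values. The annotated exons of 15 of the 36 Hox genes share bases with another gene of the table, on the same strand in 8 and on the opposite strand in 10, and the sources used here do not say whether counting was by strand. Hoxb3 shares 2250 bases, 52.9% of its exons, with the antisense gene Hoxb3os, which had 3 and 10 in V118M and was listed at 0 and 0 in WT, while Hoxb3 was lower in both V118M libraries. Hoxa11 shares 800 bases (35.0%) with Hoxa11os, which had 64 and 130 in V118M, against 66 and 56 in WT. Hoxd3 and Hoxd4 share 388 bases on the same strand, and Hoxc5 and Hoxc10 share 166, so reads there could be split between them.

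The other RNAs of the clusters were mostly low. Of 19 listed cluster RNAs, Evx genes and microRNAs, 13 had a row, 10 were tested and 0 passed, with 6 positive and 4 negative. Hoxb3os had the smallest p (limma unadjusted p = 0.0118, adjusted p = 0.951). Hotair, a long RNA of the HoxC cluster known for silencing HoxD genes in human cells, was listed at 0 and 0 in V118M, against 3 and 4 in WT. Evx1, the homeobox gene next to Hoxa13, was listed at 0 in all libraries. A second count took the non-Hox genes within 200 kb of a cluster, and it includes cluster RNAs such as Hoxb3os and Hotair again. Of these genes, 11 at HoxA, 4 at HoxB, 5 at HoxC and 7 at HoxD were tested, and 0 passed. The smallest p of each flank was for 9530018H14Rik, a gene near Hoxa13 (chromosome 6, 52256218 to 52257460; 56 and 46 in V118M, against 100 and 80 in WT), Hoxb3os, Hotair and the antisense gene Hoxd3os1 (12 and 12 in V118M, against 4 and 8 in WT). Both V118M values of 9530018H14Rik were below both WT values, while those of Hoxa13 were above.

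The partners and regulators of the Hox proteins were measured in the same libraries. The TALE homeodomain proteins (Pbx, Meis and Pknox) bind DNA together with Hox proteins. All 9 genes were tested and 0 passed, 7 of them with a positive log2 fold change (median 0.07). The groups were apart in 3 (33.3%), all higher in V118M, against 28.0% of all genes tested. Pknox2 had the smallest p (10 and 21 in V118M, against 8 and 7 in WT). Among 28 genes for Polycomb and Trithorax proteins and related regulators of the clusters 0 passed, with 13 positive and 15 negative and a median of -0.03. The groups were apart in 10 of them (35.7%), with 7 higher and 3 lower in V118M. Psip1, which encodes the chromatin adaptor LEDGF that helps MLL complexes reach Hox genes, had 2138 and 3054 in V118M, against 1651 and 1818 in WT, with the groups apart (log2 fold change 0.56 ± 0.21, limma adjusted p = 0.951). Retinoic acid induces 3' Hox genes. Of 18 genes for its synthesis, breakdown, transport and receptors 16 were tested and 0 passed, with 8 positive and 8 negative. The groups were apart in 7 of 16 (43.8%), with 3 higher and 4 lower in V118M. The synthesis enzyme Aldh1a2, with the smallest p of the list, had 66 and 76 in V118M, against 38 and 36 in WT (log2 fold change 0.92 ± 0.26, limma adjusted p = 0.951). Other genes of the list did not share this rise. Aldh1a3 had 2539 and 2307 in V118M, against 2322 and 2256 in WT, which overlapped. Aldh1a1 (141 and 108 in V118M, against 184 and 154 in WT) was lower in both V118M libraries. So was Rdh10 (452 and 526 in V118M, against 632 and 570 in WT). Cyp26a1, which breaks retinoic acid down, was listed at 0 in all libraries. Of the ParaHox genes, the evolutionary sisters of the Hox clusters, Cdx2, Gsx1 and Pdx1 were listed at 0 and Cdx4 was at 3 and 2 in V118M, against 1 and 1 in WT.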

How the data were processed

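Total RNA of 4 mouse libraries (2 SOX17-V118M, 2 SOX17 WT) was extracted with TRIzol and prepared with a TruSeq Nano kit, per the labels' protocols. Per the submitters' processing notes the build was mm10 and the tools included DESeq2, Bowtie2, RSEM and FastQC, with no version or role given. The deposited table gives a whole-number score per gene; these scores are normalized, not counts, since the sorted columns are equal at 76.7% of ranks. Depth is therefore unknown, no counting interval is given, and 2 libraries per group limit the precision.

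Genes were matched by transcript to GENCODE M21 (GRCm38): 22304 of 22369 were found, 95.9% with the same start within 1 base. The 19547 genes that reached 1 in 2 or more libraries were fitted on log2(value + 1) with limma 3.58.1 in R 4.3.3 (group as the only term, trend and robust options, two-sided, Benjamini-Hochberg over all genes tested). This scale understates changes of low genes. In 10 simulations on 19547 genes, 200 genes with a mean of 5 or more on the log2 scale were changed each time. Those changed 2-fold were called in 10.1% of cases, those changed 4-fold in 31.8% and those changed 8-fold in 53.7%. Every gene and library was given the same spread there, whereas in the data V118M replicate 2 differed from the rest and genes differed in spread. The shares therefore do not give the power for a single Hox gene, and genes with a lower mean were not changed. Alternatives were other pseudocounts and filters, array weights, removal of a length trend, the replicate number as a block and each library left out. The named genes were the Hox genes (1 member enters the counts and medians but is not reported here) and, of each other list or flank, the gene with the smallest p; others (Hoxa11os, Evx1 and genes listed at 0) were chosen after their values were seen. The members and lists were chosen with earlier results of these data known.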

Additional observations from a re-analysis of the deposited data

How the results depend on the processing

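No Hox gene passed under any alternative run. The replicate block called 3 genes in all, 0 of them Hox genes, against 0 without it. The replicate numbers are not known to pair the samples (their differences correlated at 0.303 over 12661 genes). Genes at an unadjusted p under 0.05 numbered 784, but 1441 with no filter, 1204 with the replicate block and 221 to 5096 without 1 library. The Hox median log2 fold change was -0.10 to 0.05 without 1 library. With the length trend removed it was 0.00479, and the sign turned for Hoxa9 (0.0119), Hoxb2 (0.00962), Hoxd11 (0.0388) and Hoxd13 (0.00479); the cause was not tested. The lowest adjusted p of any Hox gene under any alternative was 0.134 (limma; Hoxc13 without V118M replicate 1), and the highest was 1.0. A group left with 1 library is assumed there to vary like the other group. Without 1 library the sign of the log2 fold change turned in 20 of the members named here and held in 14, among them Hoxa13, Hoxb3, Hoxb9, Hoxc13, Hoxd4, Hoxd8 and Hoxd12. The ranges were Hoxa10 -0.26 to 0.26, Hoxa11 -0.0132 to 0.50 and Hoxa2 -0.58 to 0.23. They were Hoxa3 -0.31 to 0.0357, Hoxa5 -0.73 to 0.011, Hoxa7 -0.0254 to 0.60 and Hoxa9 -0.21 to 0.13. For others they were Hoxb2 -0.40 to 0.33, Hoxb4 -0.0922 to 0.88, Hoxb6 -0.58 to 0.46 and Hoxb7 -0.19 to 0.55. Further ranges were Hoxb8 -0.23 to 0.56, Hoxc10 -0.0583 to 0.27, Hoxc11 -0.56 to 0.0203 and Hoxc6 -0.15 to 0.0224. Next came Hoxc9 -0.0234 to 0.55, Hoxd11 -0.27 to 0.24, Hoxd13 -0.0454 to 0.00569 and Hoxd3 -0.72 to 0.10. The last was Hoxd9 -0.0307 to 0.29.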

Other observations

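Transcription factors that mark body regions and limbs without being Hox genes were also measured. Of 41 such genes 36 were tested and 0 passed (limma), with 22 positive, 13 negative and a median log2 fold change of 0.05. The groups did not overlap in 15 of them (41.7%), against 28.0% of all genes tested. Lhx8, a gene of the forebrain and jaw, had the smallest p of the list, at 7 and 8 in V118M, against 2 and 0 in WT. Of the 41 genes, Gbx2, Hand1, Meox1 and Otx2 were listed at 0 in all 4 libraries.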
